A study of Mus musculus with 12 samples.

Results

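The cathepsins A, B, C, D, H, K, L, S and Z (genes Ctsa, Ctsb, Ctsc, Ctsd, Ctsh, Ctsk, Ctsl, Ctss and Ctsz) and the cathepsin inhibitor cystatin C (Cst3) were followed in bulk RNA-seq of mouse corpus callosum, the white matter tract that joins the cerebral hemispheres. Members were the rows of the deposited table with these symbols, 10 of its 15584 genes, and all 10 were among the 13759 genes tested. The libraries form 4 groups of 3: WT control, WT cuprizone, AHR CKO control and AHR CKO cuprizone. WT mice are wild type, and AHR CKO mice lack the aryl hydrocarbon receptor (AHR), a ligand-activated transcription factor, in microglia. Cuprizone is a copper chelator that, given to mice, kills oligodendrocytes and strips myelin from the corpus callosum, while the control groups are labelled only as controls. The sources used here do not give the diet dose and length, the Cre driver, the age and sex of the mice, or whether each library is 1 animal. If the libraries of a group do not come from separate animals, the p-values cover technical spread only.

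Cathepsins are proteases of the endosome and lysosome. Most are papain-like cysteine proteases (B, C, H, K, L, S and Z), whereas cathepsin D is an aspartic protease and cathepsin A a serine carboxypeptidase. Cystatin C is a secreted protein that blocks the active site of cysteine cathepsins but not of cathepsin D or A. In brain, microglia degrade engulfed myelin in lysosomes, and astrocytes are a known source of cystatin C.

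The 12 myelin and mature oligodendrocyte markers summed to 9947 to 18794 FPKM in the control libraries and to 3198 to 5290 FPKM in the cuprizone libraries. Neuron markers were present too: the 10 of them summed to 1946 to 3028 FPKM over all libraries. How much tissue next to the tract the samples held was not tested. FPKM, fragments scaled by transcript length and library size, allows levels of different genes to be set side by side. Ahr itself ran from 1.41 to 2.57 FPKM over all libraries and did not differ between genotypes (adjusted p = 0.970 without and 0.937 with cuprizone, limma). In bulk tissue this value does not check a deletion restricted to microglia, so the genotypes rest on the labels. The AHR CKO libraries were uneven in a microglia marker. Cx3cr1, the fractalkine receptor of microglia, had 24.9, 24.4 and 22.6 FPKM in WT controls and 69.4, 49.4 and 58.7 FPKM in WT cuprizone, but 1.05, 9.60 and 0.801 FPKM in AHR CKO controls and 1.16, 22.7 and 29.6 FPKM in AHR CKO cuprizone. Cx3cr1 was named after its values were seen. Every AHR CKO library was below every WT library of the same treatment for it. AHR CKO control replicates 1 and 3 and AHR CKO cuprizone replicate 1 were the lowest. The genotype difference was not called (adjusted p = 0.0634 without and 0.069 with cuprizone, limma), and the cause of the low values was not tested. Totals per library were 447156 to 519470 FPKM, and the number of reads behind a value is unknown. Under cuprizone the totals were 447156 to 467946 FPKM in WT and 484502 to 519470 FPKM in AHR CKO, without overlap. Genes at 0 FPKM numbered 0 in each WT library except cuprizone replicate 2 (94), and 52 to 80 in the AHR CKO libraries. The cause of these differences was not tested. In bulk tissue, fewer cells of a type and less RNA per cell cannot be told apart. Log2 changes below are on the log2(FPKM + 1) scale from limma with Benjamini-Hochberg adjustment over all genes tested, folds are ratios of mean FPKM, ± is the SD over the 3 libraries of a group unless an SE is named, and calls are at an adjusted p under 0.05.

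Short stretches of promoter sequence show how these genes differ outside the measurements. Transcription factors of the MiT/TFE family bind the CLEAR element, built on the E-box letters CACGTG, in front of many lysosomal genes, and PU.1, a factor of myeloid cells, binds sites with the letters GAGGAAGT. RefSeq promoter windows of 300 bases around a transcription start (GRCm38.p6) were found for 8 of the 10 members, with no entry for Ctsb and Ctsh. Both strands were searched. The 8 members had 9 windows, as Ctsa had a further start. CACGTG stood in 3 of the 9 windows (Ctsa, Ctsd and Ctsl) and in 7.15% of all 32851 windows. The longer TCACGTGA, which contains CACGTG, was in 2 of the 9 (Ctsa and Ctsd), against 0.974% of all windows. GAGGAAGT was in 2 of the 9 (Ctsc and Ctss), against 3.2% of all windows. The letters GCGTG, core of the element that AHR binds, were in 5 of the 9, against 32.4% of all windows. Those 5 belong to 4 members (Ctsa, Ctsc, Ctsd and Ctsl). The AP-1 letters TGANTCA were in 0 of the 9, against 7.81%. These are matches of letters, not shown binding sites. Distances below count from the RefSeq start of each window, which can lie inside the gene as GENCODE places it. The Ctsa, Ctsl and Ctss stretches and the Ctsd stretch at 98 bases overlap annotated exons of their own genes. The Ctsc stretch and the Ctsd stretch at 245 bases overlap no annotated exon. The matches to the E-box and to the PU.1 letters are shown on the strand of each gene, 5′ to 3′, with the matched letters in capitals (ACTTCCTC is GAGGAAGT on the other strand).
Ctsa, chr2:164833758-164833787, + strand, a pair of E-boxes starting 12 bases before and 5 bases after a start site: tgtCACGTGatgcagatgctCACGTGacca
Ctsd, chr7:142388048-142388077, - strand, 245 bases before the start: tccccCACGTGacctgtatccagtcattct
Ctsd, chr7:142387908-142387937, - strand, 98 bases before the start: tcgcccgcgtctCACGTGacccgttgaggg
Ctsl, chr13:64370739-64370768, - strand, 236 bases before the start: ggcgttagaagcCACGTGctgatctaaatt
Ctsc, chr7:88277923-88277952, + strand, 151 bases before the start: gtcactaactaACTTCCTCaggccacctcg
Ctss, chr3:95526773-95526802, + strand, from 2 bases before the start: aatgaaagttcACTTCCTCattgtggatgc

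Under cuprizone in WT mice, 9 of the 10 genes rose and 1, Ctsk, fell. Across all tested genes 16.9% changed in this comparison, 9.08% upward and 7.81% downward. The rises formed a wide range, from 5.98-fold for Ctss to 1.62-fold for Cst3, and the median log2 change of the 10 genes was 1.76 beside -0.04 for all genes. Of the 10 genes, 9 had every WT cuprizone library above every WT control library, as did 15.8% of all genes, and Ctsk had every one below, as did 18.9%. In AHR CKO mice the same 9 genes rose and Ctsk did not pass the test. There 10.2% of all genes changed, 7.22% upward and 2.98% downward, and the median log2 change was 1.23 beside -0.01 for all genes. The 9 genes that rose had every AHR CKO cuprizone library above every AHR CKO control library, as did 14.3% of all genes.

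**Figure D1:**
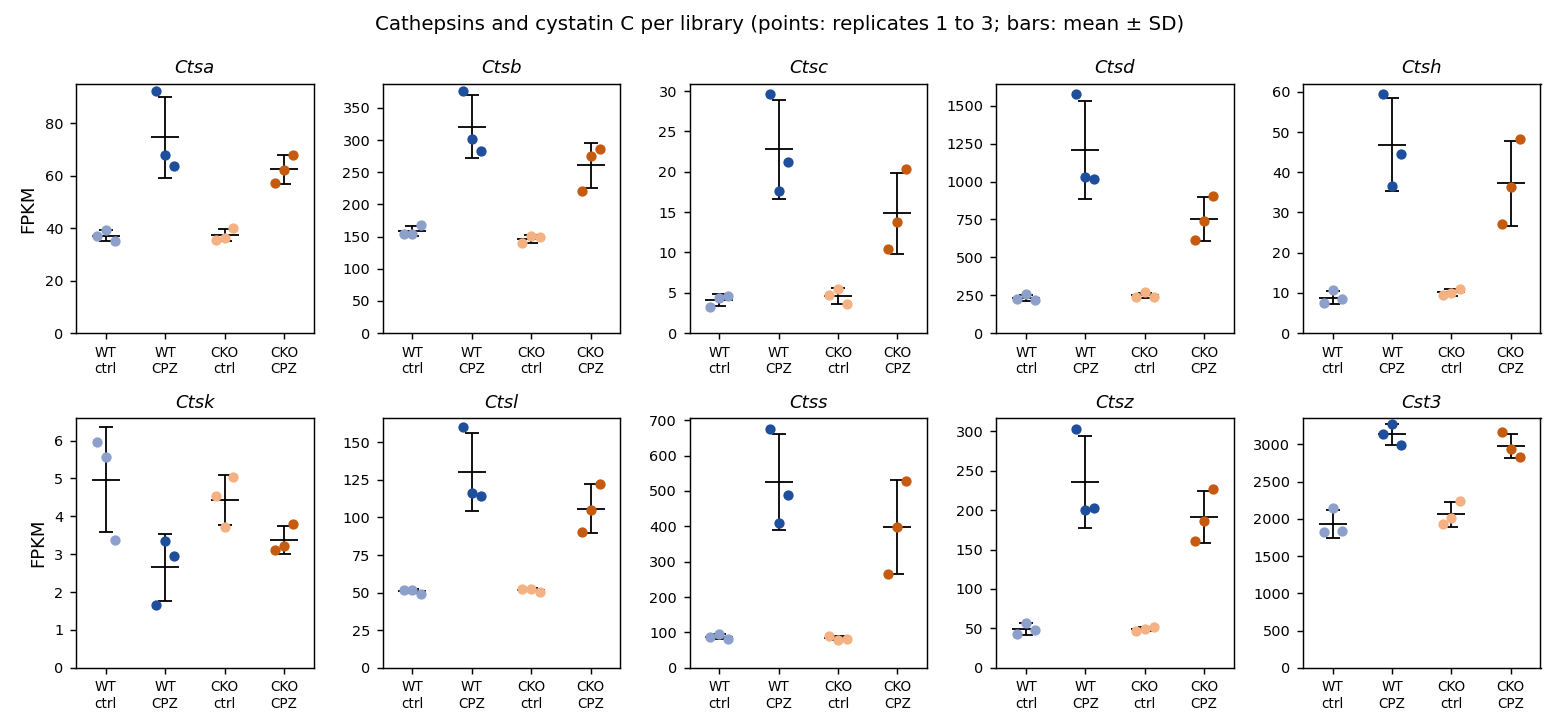
FPKM of each gene (vertical axis, starting at 0, own scale per panel) in the 4 groups; points are libraries in the order of their replicate number and bars are mean ± SD. The 8 cathepsins other than Ctsk, and Cst3, sit higher in both cuprizone groups than in either control group, and Ctsk is the only panel where both cuprizone means are below the control means.

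Cathepsin D, the main lysosomal aspartic protease, was the most abundant cathepsin transcript in all 4 groups. Ctsd (chromosome 7, 142375911 to 142388038, minus strand, GENCODE M21 on GRCm38) had 225, 257 and 215 FPKM in WT controls and 1578, 1032 and 1014 FPKM in WT cuprizone. In AHR CKO it had 239.6, 268 and 239 FPKM in controls and 611, 738 and 903 FPKM under cuprizone. The control libraries of both genotypes lay together, every cuprizone library was above every control, and every AHR CKO cuprizone library lay below every WT cuprizone library. The rise was 5.20-fold in WT (log2 change 2.35, SE 0.18, adjusted p = 6.37e-06) and 3.02-fold in AHR CKO (1.57, SE 0.18, adjusted p = 0.00014). By mean FPKM, Ctsd moved from rank 287 to rank 16 among all tested genes in WT, and from rank 294 to rank 64 in AHR CKO.

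Cathepsin S, a cysteine protease of antigen-presenting cells that trims the invariant chain, had the largest rise of the 10 genes in both genotypes. Ctss (chromosome 3, 95526786 to 95556403, plus strand) had 87.8, 94.4 and 80.9 FPKM in WT controls and 675, 409.7 and 489 FPKM in WT cuprizone. AHR CKO controls had 91.2, 78.7 and 82.0 FPKM and AHR CKO cuprizone libraries 265, 398 and 529.6 FPKM. Cuprizone and control libraries did not overlap in either genotype, whereas the cuprizone libraries of the genotypes overlapped. Ctss rose 5.98-fold in WT (log2 change 2.54, SE 0.22, adjusted p = 1.27e-05) and 4.74-fold in AHR CKO (2.18, SE 0.22, adjusted p = 6.91e-05).

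Cathepsins Z, H and C are cysteine exopeptidases: cathepsin Z removes single residues from the carboxyl end, cathepsin H mainly from the amino end, and cathepsin C removes dipeptides and activates serine proteases of immune cells. Ctsz (chromosome 2, 174427493 to 174439039, minus strand) had 42.6, 57.1 and 47.7 FPKM in WT controls, 303, 200.4 and 203 FPKM in WT cuprizone, 46.1, 49.5 and 52.0 FPKM in AHR CKO controls and 161, 186 and 227 FPKM in AHR CKO cuprizone. Ctsh (chromosome 9, 90054152 to 90076089, plus strand) had 7.40, 10.6 and 8.47 FPKM, then 59.5, 36.6 and 44.5, then 9.47, 9.87 and 10.97, then 27.2, 36.2 and 48.3 FPKM in the same order of groups. Ctsc (chromosome 7, 88278085 to 88310888, plus strand) had 3.29, 4.37 and 4.62 FPKM, then 29.6, 17.6 and 21.1, then 4.77, 5.51 and 3.54, then 10.4, 13.7 and 20.3 FPKM. For all 3 genes the lowest cuprizone library was above the highest control library within each genotype, and the cuprizone libraries of WT and AHR CKO overlapped. The genes differ widely in control level, from 49.1 ± 7.36 FPKM for Ctsz to 4.09 ± 0.709 FPKM for Ctsc in WT, and their WT rises were close: 4.80-fold for Ctsz, 5.31-fold for Ctsh and 5.57-fold for Ctsc. In AHR CKO the rises were 3.88-fold, 3.68-fold and 3.22-fold. Adjusted p-values (limma) ran from 6.48e-06 for Ctsz to 4.47e-05 for Ctsc in WT, and from 2.57e-05 for Ctsz to 0.00145 for Ctsc in AHR CKO.

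Cathepsins L and B, the broadly expressed cysteine endopeptidases of most cell types, and cathepsin A, the carboxypeptidase that protects β-galactosidase and neuraminidase in the lysosome, rose less. Ctsl (chromosome 13, 64359337 to 64370890, minus strand) had 52.0, 51.4 and 49.3 FPKM in WT controls, 160.4, 116 and 114 FPKM in WT cuprizone, 52.5, 52.4 and 50.7 FPKM in AHR CKO controls and 90.0, 105 and 122 FPKM in AHR CKO cuprizone. Ctsb (chromosome 14, 63122462 to 63145923, plus strand) had 155, 154 and 167 FPKM, then 376, 302 and 283, then 139.8, 150.5 and 149.8, then 221, 275 and 287 FPKM in that order. Ctsa (chromosome 2, 164832873 to 164841032, plus strand) had 37.1, 39.1 and 35.0 FPKM, then 92.2, 67.8 and 63.7, then 35.6, 36.3 and 40.0, then 57.0, 62.3 and 68.0 FPKM. Control libraries of these genes were tight, and no cuprizone library reached down to them. The WT rises were 2.56-fold for Ctsl (adjusted p = 3.19e-05), 2.02-fold for Ctsb (adjusted p = 0.000121) and 2.01-fold for Ctsa (adjusted p = 0.000171). The AHR CKO rises were 2.04-fold for Ctsl (adjusted p = 0.000391), 1.78-fold for Ctsb (adjusted p = 0.0009) and 1.67-fold for Ctsa (adjusted p = 0.00252).

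Cathepsin K, the collagen-degrading protease best known from osteoclasts, went the other way. Ctsk (chromosome 3, 95499256 to 95509362, plus strand) was low throughout, with 5.95, 5.56 and 3.38 FPKM in WT controls and 1.66, 3.35 and 2.96 FPKM in WT cuprizone. AHR CKO controls had 4.54, 3.72 and 5.03 FPKM and AHR CKO cuprizone libraries 3.10, 3.21 and 3.802 FPKM. In WT the groups were separate by the narrow gap between 3.38 and 3.35 FPKM, and in AHR CKO they overlapped. Ctsk fell in WT to 0.536 of its control mean (log2 change -0.71, SE 0.21, adjusted p = 0.0342), and its log2 change in AHR CKO was -0.31 (SE 0.21, adjusted p = 0.3995). The WT call was lost when WT control replicate 1 (-0.58, adjusted p = 0.1235) or 2 (-0.62, adjusted p = 0.116), or WT cuprizone replicate 1 (-0.49, adjusted p = 0.1365) or 3 (-0.78, adjusted p = 0.054), was left out. With only the groups compared in the fit its adjusted p was 0.103, and over all alternatives it ran from 0.00774 to 0.1365. The summed myelin markers fell beside it, from 14729 to 3547 FPKM in WT and from 10255 to 4739 FPKM in AHR CKO on average; their part in the Ctsk value was not tested.

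Ctsk and Ctss are neighbours: both lie on the plus strand of chromosome 3 with 17423 bases and 0 annotated genes between them, and they moved in opposite directions in WT cuprizone. The 250 bases before the RefSeq start of each are shown because the pair shares a locus and not a response; neither stretch holds any of the 5 motifs whole, and the PU.1 letters of Ctss shown above run across its start.
Ctsk, chr3:95498960-95499209, + strand: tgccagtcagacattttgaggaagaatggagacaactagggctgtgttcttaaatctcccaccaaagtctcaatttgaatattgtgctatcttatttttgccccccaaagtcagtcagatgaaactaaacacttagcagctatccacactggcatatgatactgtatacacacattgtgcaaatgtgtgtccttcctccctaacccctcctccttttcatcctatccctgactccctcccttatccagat
Ctss, chr3:95526536-95526785, + strand: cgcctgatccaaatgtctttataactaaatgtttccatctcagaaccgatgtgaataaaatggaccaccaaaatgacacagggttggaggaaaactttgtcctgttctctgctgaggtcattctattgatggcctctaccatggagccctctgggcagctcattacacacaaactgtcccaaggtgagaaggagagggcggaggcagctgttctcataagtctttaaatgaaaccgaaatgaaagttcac

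Cystatin C was the most abundant of the 10 transcripts in every group and changed least among the genes that rose. Cst3 (chromosome 2, 148871722 to 148875692, minus strand) had 1821, 2151 and 1831 FPKM in WT controls and 3142, 3267 and 2989.7 FPKM in WT cuprizone. AHR CKO controls had 1927, 2005 and 2242 FPKM and AHR CKO cuprizone libraries 3161, 2940.4 and 2834 FPKM. The groups were separate within each genotype, and by mean FPKM Cst3 was rank 6 of all tested genes in both control groups, rank 3 in WT cuprizone and rank 4 in AHR CKO cuprizone. It rose 1.62-fold in WT (log2 change 0.70, SE 0.13, adjusted p = 0.00282) and 1.45-fold in AHR CKO (0.53, SE 0.13, adjusted p = 0.0230). The AHR CKO rise no longer passed when AHR CKO control replicate 1 (0.49, adjusted p = 0.0924) or 2 (0.52, adjusted p = 0.0939) or AHR CKO cuprizone replicate 2 (0.54, adjusted p = 0.0676) was left out, and quantile normalization gave 0.25 (adjusted p = 0.119). Over all alternatives its adjusted p ran from 0.00418 to 0.119. The 10 astrocyte markers summed to 1543 FPKM in WT controls and 2840 FPKM in WT cuprizone, and to 1454 and 2552 FPKM in AHR CKO. Of them 6 of 10 were called higher in WT and 4 of 10 in AHR CKO, against 9.08% and 7.22% of all genes. The part of astrocytes in the Cst3 value was not tested. Choroid plexus and ependymal markers summed to 60.6 to 185 FPKM in WT controls, 71.3 to 3005 FPKM in WT cuprizone, 431 to 3600 FPKM in AHR CKO controls and 1040.2 to 3759 FPKM in AHR CKO cuprizone. The library with the highest Cst3 of its group had the lowest such sum in WT cuprizone (replicate 2) and the highest in AHR CKO cuprizone (replicate 1), and the part of these cells in Cst3 was not tested.

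**Figure D2:**
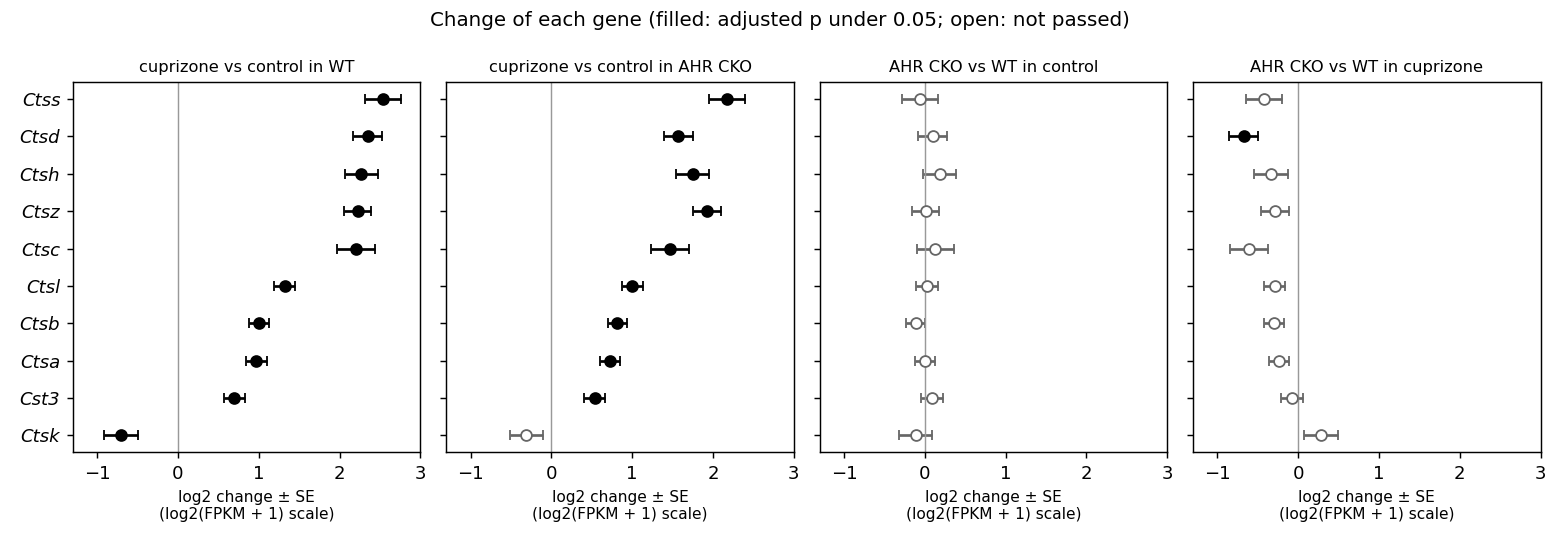
Log2 change ± SE on the log2(FPKM + 1) scale (horizontal axis) of each gene (vertical axis, ordered by its change in WT) in 4 comparisons; filled points passed an adjusted p under 0.05 (limma). Cuprizone points run from 2.54 for Ctss down to -0.71 for Ctsk in WT; between genotypes the points lie from -0.11 to 0.19 in controls, and 9 of 10 lie below 0 under cuprizone with only Ctsd filled.

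The makeup of the 10 transcripts shifted under cuprizone. Their summed level went from 2568 ± 222 to 5698 ± 633 FPKM in WT and from 2695 ± 165 to 4802 ± 222 FPKM in AHR CKO. Cst3 made up 75.3% ± 0.761 of that sum in WT controls and 55.4% ± 5.71 in WT cuprizone, and 76.3% ± 1.44 and 62.2% ± 6.22 in AHR CKO. The Ctsd share went from 9.04% ± 0.225 to 21.0% ± 3.14 in WT and from 9.26% ± 0.881 to 15.6% ± 2.33 in AHR CKO, and the Ctss share from 3.42% to 9.13% and from 3.13% to 8.21%. Ctsb, which rose in absolute level, held a like share throughout, at 6.22% and 5.61% in WT and 5.45% and 5.42% in AHR CKO.

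The 7 cysteine cathepsins that cystatin C can inhibit summed to 354, 378 and 362 FPKM in WT controls and to 1606, 1086 and 1158 FPKM in WT cuprizone. In AHR CKO they summed to 348, 350.2 and 354 FPKM in controls and to 778, 1016 and 1238 FPKM under cuprizone. Cst3 FPKM over this sum was 5.15, 5.69 and 5.06 in WT controls and 1.96, 3.01 and 2.58 in WT cuprizone. In AHR CKO it was 5.53, 5.73 and 6.33 in controls and 4.06, 2.89 and 2.29 under cuprizone. The ratio was thus lower in every cuprizone library than in any control library, and the cuprizone libraries of the genotypes overlapped. These are ratios of transcripts, and protein or enzyme activity was not measured.

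**Figure D3:**
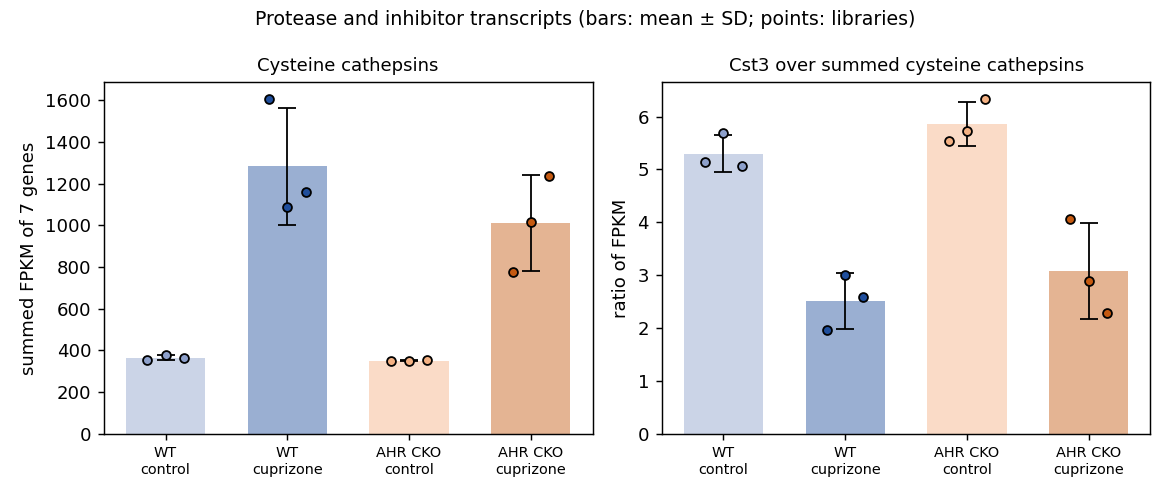
Left, summed FPKM of the 7 cysteine cathepsins; right, Cst3 FPKM divided by that sum; bars are group means from 0, whiskers the SD and points the 3 libraries of each group. The sum is 348 to 378 FPKM in the control libraries and 778 to 1606 FPKM under cuprizone, and the ratio is 5.06 to 6.33 in controls and 1.96 to 4.06 under cuprizone.

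The order of levels changed with it. In WT controls it ran Cst3, Ctsd, Ctsb, Ctss, Ctsl, Ctsz, Ctsa, Ctsh, Ctsk and Ctsc, with Ctsl and Ctsz overlapping between libraries, as did Ctsk and Ctsc. In WT cuprizone Ctss (525 ± 136 FPKM) stood above Ctsb (320.4 ± 48.9 FPKM), and Ctsc (22.8 ± 6.15 FPKM) above Ctsk (2.66 ± 0.887 FPKM), with no overlap in either pair, while Ctsb and Ctsz (236 ± 58.7 FPKM) overlapped. In AHR CKO cuprizone Ctss (398 ± 132 FPKM), Ctsb (261 ± 35.0 FPKM) and Ctsz (191 ± 33.3 FPKM) followed each other with overlapping libraries.

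Without cuprizone, none of the 10 genes differed between AHR CKO and WT. The background was 6.19% of all tested genes, 1.42% higher and 4.76% lower. That background rests on single libraries: the 851 genes behind it became 4 to 1428 when 1 library was left out (4 without AHR CKO control replicate 3, 1428 without AHR CKO cuprizone replicate 1), 51 with a replicate block and 127 with only the groups compared, while 0 of the 10 genes passed in any of these fits. Their log2 changes lay between -0.11 and 0.19 with SEs of 0.12 to 0.23, adjusted p-values (limma) ran from 0.581 to 0.975, and 0 had an unadjusted p under 0.05. Ctsb was the only gene with separate groups, 139.8 to 150.5 FPKM in AHR CKO against 154 to 167 FPKM in WT (log2 change -0.11, adjusted p = 0.581), while 21.9% of all genes had every AHR CKO library below every WT library.

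Under cuprizone, Ctsd was lower in AHR CKO than in WT, and it was the only one of the 10 genes to pass. The AHR CKO mean of 751 ± 147 FPKM was 0.622 of the WT mean of 1208 ± 320.4 FPKM (log2 change -0.67, SE 0.18, adjusted p = 0.0242, limma). In this comparison 20% of all genes passed, 9.14% higher and 10.8% lower, and 20.0% had every AHR CKO library below every WT library, so 1 of 10 is close to the share of genes at large. The microglia markers described below summed to 1616 ± 366 FPKM in AHR CKO and 2192 ± 449 FPKM in WT under cuprizone, with overlapping libraries, and their part in the Ctsd difference was not tested. The call was lost without WT cuprizone replicate 1 (-0.46, adjusted p = 0.0756), AHR CKO cuprizone replicate 1 (-0.53, adjusted p = 0.102) or AHR CKO cuprizone replicate 2 (-0.67, adjusted p = 0.0613). With only the 2 cuprizone groups in the fit the adjusted p was 0.0839, and over all alternatives it ran from 0.0105 to 0.102. Of the other 9 genes 8 had a log2 change below 0: Ctsc -0.60 (adjusted p = 0.0840), Ctss -0.42 (adjusted p = 0.185), Ctsh -0.33 (adjusted p = 0.254), Ctsb -0.29 (adjusted p = 0.102), Ctsl -0.29 (adjusted p = 0.134), Ctsz -0.29 (adjusted p = 0.238), Ctsa -0.24 (adjusted p = 0.187) and Cst3 -0.07 (adjusted p = 0.711). Ctsk was at 0.28 (adjusted p = 0.331). Ctsc (adjusted p = 0.0223) and Ctss (adjusted p = 0.0413) passed without AHR CKO cuprizone replicate 3. Ctsb passed when every library was rescaled to a common total (-0.43, adjusted p = 0.0416), a scaling that moved the median log2 change of all genes in this comparison to -0.119. Under quantile normalization, which left that median at 0.001, Ctsb (-0.47, adjusted p = 0.0313) and Cst3 (-0.33, adjusted p = 0.0316) passed beside Ctsd.

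The difference between genotypes in the cuprizone effect itself did not pass for any of the 10 genes. For Ctsd the interaction was -0.77 on the log2 scale (SE 0.25, unadjusted p = 0.00985, adjusted p = 0.3405, limma) and for Ctsc -0.74 (SE 0.33, unadjusted p = 0.0457, adjusted p = 0.514). These were the 2 genes with an unadjusted p under 0.05, and 0.0363% of all tested genes passed, 0.0145% above 0 and 0.0218% below. A rise that differs between the genotypes was thus not shown for any of them.

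Libraries differed in step across the cathepsins. WT cuprizone replicate 1 had the highest level of its group for all 8 cathepsins that rose, AHR CKO cuprizone replicate 1 the lowest for all 8, and AHR CKO cuprizone replicate 3 the highest for all 8. The 18 microglia markers, all with a row in the table, moved with them: their sum was 486 to 553 FPKM in WT controls, 2702, 1854 and 2020.5 FPKM in WT cuprizone, 457 to 487 FPKM in AHR CKO controls, and 1237, 1642 and 1967 FPKM in AHR CKO cuprizone. Of the 18 markers 12 were called higher under cuprizone in WT and 10 in AHR CKO, and 6 were called lower in AHR CKO than in WT under cuprizone. The shares of all tested genes called likewise were 9.08%, 7.22% and 10.8%. Cx3cr1, described above, is 1 of the 18. The 7 border macrophage markers summed to 1.89 to 6.51 FPKM in all libraries. Of these Mrc1, Cd163 and Lyve1, and the monocyte gene Ccr2, stayed under 1 FPKM in each. Only 2 of the 7, Pf4 and Ms4a7, were tested. Ms4a7 was called higher under cuprizone in AHR CKO (1.06, adjusted p = 0.0131, limma) and not in WT (0.57, adjusted p = 0.127), and Pf4 in neither. The 3 monocyte and neutrophil markers with a row summed to 1.12 and 2.28 FPKM in WT and 1.11 and 2.35 FPKM in AHR CKO on average, with overlapping libraries.

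**Figure D4:**
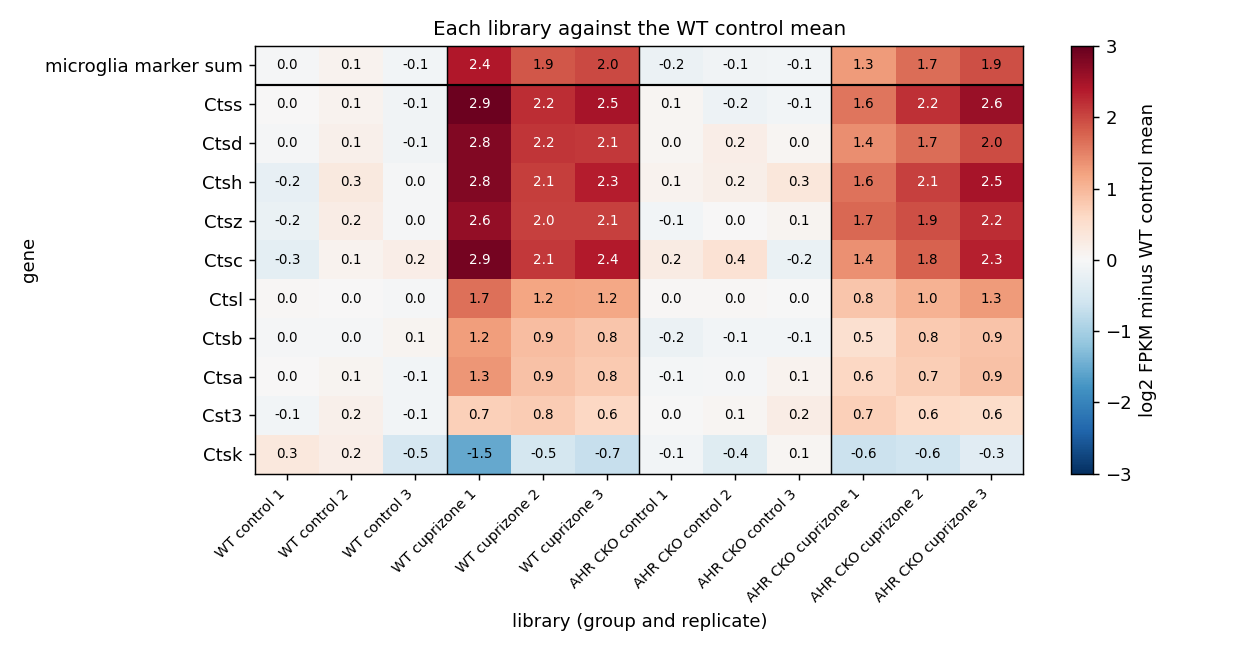
Log2 FPKM of each library (columns) relative to the WT control mean, for the summed microglia markers (top row) and each gene (rows below, ordered by change in WT); red is higher and blue lower, with the value in each cell to 1 decimal. WT cuprizone replicate 1 is the darkest red column and AHR CKO cuprizone replicate 1 the palest of the cuprizone columns for the microglia sum and for the 8 cathepsins that rose, while Ctsk is blue in the cuprizone columns.

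Set against the summed microglia markers, the genes changed by unequal amounts, and where the dividing line falls depends on how the markers are combined. The sum rose by 2.08 on the log2 scale in WT and by 1.75 in AHR CKO. The log2 ratio of a gene to the sum changed between control and cuprizone by 0.47 for Ctss, 0.38 for Ctsc, 0.32 for Ctsh, 0.27 for Ctsd and 0.17 for Ctsz in WT. It changed by -0.74 for Ctsl, -1.07 for Ctsb, -1.09 for Ctsa, -1.38 for Cst3 and -2.998 for Ctsk. In AHR CKO the first 5 were at 0.44, -0.09, 0.10, -0.17 and 0.20, and the others at -0.73, -0.93, -1.01, -1.21 and -2.14. Using the mean of the markers' log2 values in place of their sum adds the same amount to every gene of a comparison, so the order of the genes stays but every value moves up. With it Ctss, Ctsc, Ctsh, Ctsd and Ctsz were at 0.82 to 1.12 in WT and 0.49 to 1.11 in AHR CKO, the latter turning the sign for Ctsc (0.57) and Ctsd (0.49). Ctsl was then at -0.0911 and -0.0674, and Ctsb, Ctsa, Cst3 and Ctsk stayed below 0. Between genotypes under cuprizone the Ctsd ratio was lower in AHR CKO by 0.23 with the sum (pooled SD 0.09, no overlap) and by 0.06 with the mean of logs. With Cx3cr1 left out of the markers, an alternative chosen after its values were seen, the difference was -0.25 with the sum and -0.165 with the mean of logs. The part of microglia number in these values was not tested.

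**Figure D5:**
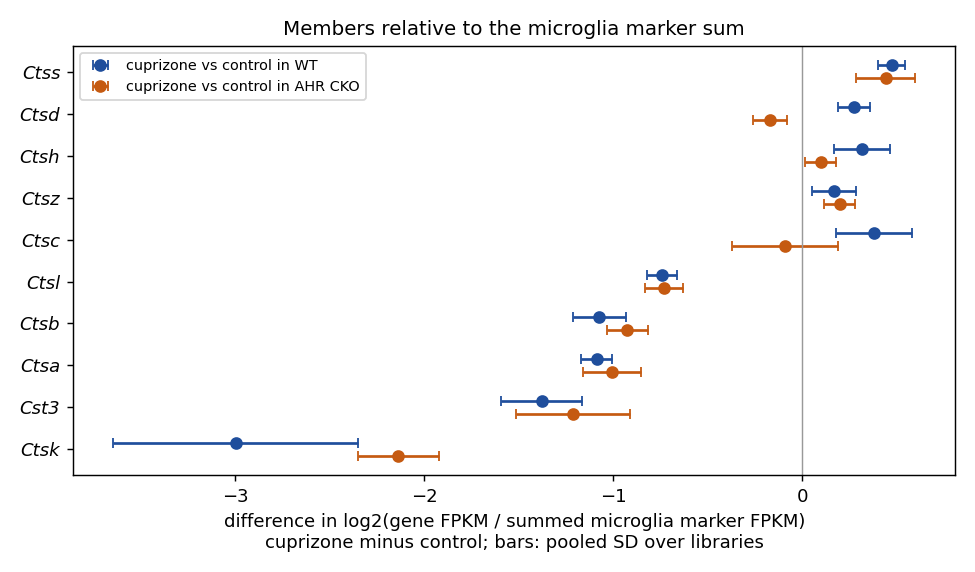
Difference between cuprizone and control (horizontal axis) in log2 of gene FPKM over summed microglia marker FPKM, for each gene (vertical axis) in WT (blue) and AHR CKO (orange); bars are the pooled SD over libraries. Ctss, Ctsd, Ctsh, Ctsz and Ctsc lie between -0.17 and 0.47, and Ctsl, Ctsb, Ctsa, Cst3 and Ctsk between -0.73 and -2.998.

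The genes outside the 10, predicted genes aside, whose course over the 12 libraries was most like each member were also named. Likeness was the root mean square difference of centred log2(FPKM + 1). The nearest were Itgb2, a leukocyte integrin chain, for Ctss (0.077 log2 units), Ly86, a partner of a Toll-like receptor homologue, for Ctsd (0.105), Ctsh (0.1205) and Ctsz (0.124), and Laptm5, a lysosomal membrane protein of leukocytes, for Ctsc (0.166). For the others they were Dhrs1 for Ctsl (0.0909), Rin3 for Ctsb (0.105), Rnase4 for Ctsa (0.0668), Aen for Cst3 (0.0848) and Shisa4 for Ctsk (0.111). Among the 10 genes the closest pairs were Ctsa with Ctsb (0.0978) and Ctsh with Ctsz (0.112), while Ctsk was at least 0.6245 from every other one.

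Other cathepsins with a row in the table were Ctsf and Ctso, both cysteine proteases, and neither passed in any of the 4 comparisons. Ctsf averaged 35.1 ± 4.27 FPKM in WT controls and 36.6 ± 2.41 FPKM in WT cuprizone (log2 change 0.06, adjusted p = 0.714), and 40.9 ± 0.417 and 38.1 ± 2.75 FPKM in AHR CKO (-0.10, adjusted p = 0.5615). Ctso averaged 16.1 ± 1.29 and 20.4 ± 0.734 FPKM in WT (0.33, adjusted p = 0.112) and 14.0 ± 2.42 and 17.3 ± 2.69 FPKM in AHR CKO (0.30, adjusted p = 0.191).

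Of the 9 other protease inhibitors tested, 2 rose and 1 fell under cuprizone in each genotype. Across all tested genes 9.08% rose and 7.81% fell in WT, and 7.22% rose and 2.98% fell in AHR CKO. Cst7, or cystatin F, an inhibitor that immune cells target to endosomes where it controls cathepsin C, went from 0.686, 1.80 and 0.216 FPKM to 107, 46.4 and 68.7 FPKM in WT, and from 0.312, 0.607 and 0.8298 FPKM to 21.5, 26.6 and 37.9 FPKM in AHR CKO. Its control values are near the floor of the table, and its cuprizone libraries of WT and AHR CKO did not overlap. Cst7 was lower in AHR CKO than in WT under cuprizone (log2 change -1.29, SE 0.33, adjusted p = 0.0207), without WT cuprizone replicate 1 at -0.99 (adjusted p = 0.0749), without WT cuprizone replicate 3 at -1.304 (adjusted p = 0.0577), without AHR CKO cuprizone replicate 1 at -1.11 (adjusted p = 0.0910) and without AHR CKO cuprizone replicate 2 at -1.26 (adjusted p = 0.0570). With a pseudocount of 0.1 its adjusted p was 0.0998. Serpina3n, a secreted serine protease inhibitor, went from 7.70 ± 1.92 to 141 ± 47.9 FPKM in WT and from 9.62 ± 2.14 to 140.0 ± 48.7 FPKM in AHR CKO (adjusted p = 5.2e-06 and 1.44e-05, limma) and did not differ between genotypes under cuprizone (adjusted p = 0.957). Serpinb1a, which inhibits neutrophil serine proteases including cathepsin G, fell in WT from 18.1 ± 2.29 to 1.83 ± 1.44 FPKM (adjusted p = 1.64e-05) and in AHR CKO from 12.96 ± 2.43 to 6.40 ± 0.736 FPKM (adjusted p = 0.0465). Under cuprizone its AHR CKO level exceeded that of WT by 1.49 on the log2 scale (SE 0.26, adjusted p = 0.00664), and its interaction did not pass (adjusted p = 0.146). Its AHR CKO call was lost on leaving out any 1 AHR CKO library except control replicate 3 (adjusted p = 0.076 to 0.175) or WT control replicate 1 (adjusted p = 0.0644) or 2 (adjusted p = 0.0603). It was also lost with a pseudocount of 0.1 (adjusted p = 0.107), without the filter (0.0562), with a common total (0.0636), without a trend in the prior variance (0.0531) and with a replicate block (0.0807), 12 of 20 alternatives in all. Cstb, the cytosolic stefin B, averaged 47.5 ± 7.01 and 59.1 ± 6.05 FPKM in WT (adjusted p = 0.138) and 62.8 ± 6.38 and 77.8 ± 11.1 FPKM in AHR CKO (adjusted p = 0.196). Cst6, a secreted cystatin of cysteine cathepsins, averaged 1.12 ± 0.0986 and 0.920 ± 0.381 FPKM in WT (adjusted p = 0.511) and 1.17 ± 0.155 and 1.24 ± 0.115 FPKM in AHR CKO (adjusted p = 0.887). Cst6, Cstb, Serpinb6a, Serpinb9, Serpinb8 and Serpinb6b did not pass in any comparison.

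Genes of protease maturation, sorting and transport moved in part. Of 24 tested, 7 rose and 1 fell under cuprizone in WT, and 6 rose in AHR CKO. The shares of all tested genes were 9.08% up and 7.81% down in WT, and 7.22% up in AHR CKO. Lgmn, the asparaginyl endopeptidase that processes procathepsins, rose from 81.4 ± 9.004 to 126 ± 16.5 FPKM in WT (adjusted p = 0.00309) and from 80.9 ± 5.21 to 134 ± 14.3 FPKM in AHR CKO (adjusted p = 0.0019). Psap, the saposin precursor that carries cathepsin D to the lysosome, went from 678 ± 14.6 to 859 ± 38.1 FPKM in WT (adjusted p = 0.0230) and from 738 ± 31.9 to 863 ± 18.6 FPKM in AHR CKO (adjusted p = 0.155). The WT call of Psap was lost on leaving out any 1 of the WT libraries except cuprizone replicate 2 (adjusted p = 0.0518 to 0.0894) and under quantile normalization (0.13, adjusted p = 0.476). Grn, the progranulin gene and the second nearest to Ctsd in course (0.120), rose 4.70-fold in WT (adjusted p = 1.21e-05) and 2.95-fold in AHR CKO (adjusted p = 0.000239). Prdx6 rose in both genotypes (0.73 and 0.69, adjusted p = 0.000236 and 0.000656), and the membrane protein gene Lamp1 passed in neither (0.14 and 0.29, adjusted p = 0.438 and 0.117).

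Of the 9 partners of cathepsin A and further lysosomal peptidases, 7 rose in WT and 5 in AHR CKO, by less than Ctsd or Ctss. Among all tested genes 9.08% rose in WT and 7.22% in AHR CKO. The tripeptidyl peptidase gene Tpp1 went from 24.9 ± 1.56 to 37.2 ± 4.33 FPKM in WT (adjusted p = 0.0034) and from 22.4 ± 1.39 to 29.8 ± 3.89 FPKM in AHR CKO (adjusted p = 0.0388). Scpep1, a serine carboxypeptidase related to cathepsin A, went from 9.32 ± 2.90 to 18.7 ± 1.497 FPKM in WT (adjusted p = 0.00635) and from 9.70 ± 0.971 to 18.5 ± 4.84 FPKM in AHR CKO (adjusted p = 0.0235). In AHR CKO the Tpp1 call was lost on leaving out any of 8 of the 12 libraries (adjusted p = 0.0514 to 0.152), and the Scpep1 call on leaving out any AHR CKO library except cuprizone replicate 1 (adjusted p = 0.053 to 0.0911). Cpq passed in WT (0.96, adjusted p = 0.00763) and not in AHR CKO (0.64, adjusted p = 0.0841), and Ppt1, a palmitoyl thioesterase, in neither (0.13 and 0.20, adjusted p = 0.389 and 0.209).

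Of the 11 tested genes of the MiT/TFE factors and their lysosomal control, 0 passed under cuprizone in WT and 1 in AHR CKO. Among all tested genes 16.9% passed in WT and 10.2% in AHR CKO. The most abundant genes of the list, Rraga, Lamtor1, Rragc and Mcoln1, had WT log2 changes of -0.15, 0.07, 0.07 and -0.21 (adjusted p = 0.407, 0.695, 0.501 and 0.0656). The single call for cuprizone was Tfe3, named after its value was seen, at 0.33 in AHR CKO (adjusted p = 0.0239) and 0.20 in WT (adjusted p = 0.126). That call did not hold without AHR CKO control replicate 1 (adjusted p = 0.107) or 2 (adjusted p = 0.0906) or AHR CKO cuprizone replicate 3 (adjusted p = 0.0877). The factors Tfeb (-0.15 in WT and -0.0055 in AHR CKO) and Mitf (0.32 and 0.06) did not pass. Between genotypes 1 of the 11 was called lower in AHR CKO without cuprizone and 1 with it, against 4.76% and 10.8% of all genes. The latter was Mitf, named after its value was seen (-0.43, adjusted p = 0.0455, limma). Its call was lost on leaving out any 1 of 7 libraries (adjusted p = 0.0519 to 0.155).

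MHC class II and its loading factors, the route that cathepsin S serves, rose as well. Here 6 of 6 tested genes were called higher in WT and 5 of 6 in AHR CKO, against 9.08% and 7.22% of all genes. Cd74, the invariant chain that cathepsin S cleaves, had 4.89, 3.03 and 2.85 FPKM in WT controls and 138, 34.1 and 134 FPKM in WT cuprizone, and 5.27, 9.28 and 2.27 against 46.1, 99.7 and 119 FPKM in AHR CKO. WT cuprizone replicate 2 was low for Cd74, for H2-Ab1 (9.79 beside 39.1 and 39.1 FPKM) and for H2-Aa (6.24 beside 35.0 and 29.0 FPKM), as it was lowest of its group for Ctss. The Cd74 rise was 4.27 on the log2 scale in WT (SE 0.54, adjusted p = 0.000147) and 3.797 in AHR CKO (SE 0.54, adjusted p = 0.000638), and it did not differ between genotypes under cuprizone (adjusted p = 0.935). H2-DMa, a peptide exchange factor, passed in WT (0.89, adjusted p = 0.00412) and not in AHR CKO (0.33, adjusted p = 0.285).

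Among 11 substrates named for cathepsins, 2 rose and 2 fell in WT under cuprizone and 1 rose in AHR CKO. Of all tested genes 9.08% rose and 7.81% fell in WT, and 7.22% rose in AHR CKO. Fn1, fibronectin, rose from 5.24 ± 0.396 to 12.5 ± 4.39 FPKM in WT (adjusted p = 0.0153) and from 4.91 ± 0.662 to 11.6 ± 5.52 FPKM in AHR CKO (adjusted p = 0.0322). Its WT call was lost without control replicate 1 (adjusted p = 0.0509) or cuprizone replicate 1 (adjusted p = 0.0687), and its AHR CKO call without any 1 control library or cuprizone replicate 3 (adjusted p = 0.0509 to 0.12). App, the amyloid precursor, fell from 814 ± 16.4 to 544 ± 33.3 FPKM in WT (adjusted p = 0.00115) and was at 718 ± 17.9 and 595 ± 48.2 FPKM in AHR CKO (adjusted p = 0.103; 0.0269 with a common total and 0.0285 with quantile normalization). Cx3cl1, a ligand that cathepsin S can cleave, passed in neither (-0.22 and -0.41, adjusted p = 0.384 and 0.123), and neither did the collagen gene Col4a2 (0.23 and -0.07, adjusted p = 0.465 and 0.869).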

How the data were processed

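Total RNA of corpus callosum was sequenced in 12 libraries, 4 groups of 3, mapped to groups by genotype, treatment and number in the sample labels. The values are FPKM computed by the authors and deposited as a single table, with symbols in the first column and a column per library, per the file headers. Per the submitters' processing notes the build was GRCm38 (mm10). Which aligner and quantifier were run was not given in the sources used here. Since FPKM keeps no read numbers, depth is unknown and no interval on counts is given. A few very abundant genes can shift all others.

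A gene was tested where 3 or more libraries had 1 FPKM or more (13759 of 15584), as log2(FPKM + 1), a pseudocount of 1 that understates changes of low genes. A group-means model over all 12 libraries, fitted in limma 3.58.1 (R 4.3.3) with a trended prior variance, gave the effect of cuprizone within each genotype, the effect of genotype within each treatment, and their interaction. P-values are two-sided, adjusted by Benjamini-Hochberg over all genes tested in a comparison, with a threshold of 0.05. Exact tests of 3 against 3 cannot reach that threshold and were not used. The model was tested on simulated data first. The members and the gene lists were chosen with earlier results of these data known, so lists are described by counts beside those of all genes, without a set test. All members are named in every comparison. Of each pathway list the 4 tested genes of highest mean FPKM are named, and so are all other cathepsins and inhibitors tested. The genes outside the members that were nearest each member in course are named too. Promoters and start sites are RefSeq's (GRCm38.p6), and gene positions GENCODE M21's. Alternatives covered the pseudocount (0.1), the filter, 3 other scalings, the prior variance, the samples in the fit, a replicate block and leaving out each library.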

Additional observations from a re-analysis of the deposited data

How the results depend on the processing

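Over 20 alternatives, the 20 calls on the 10 genes gave 400 fits, of which 382 kept their call, 18 lost it and 0 reversed. The lost calls were those of Ctsk in WT, Cst3 in AHR CKO and Ctsd between genotypes under cuprizone. The cause was not tested for any of the changes below. The replicate numbers showed no sign of pairing the libraries. Same-number deviations correlated from -0.343 to 0.25, with 3 of 18 pairs over 0.1, against -0.396 to 0.44 for different numbers. In 3 of 18 checks of a library against another group its best match had its own number. Deviations of 3 libraries from their group mean sum to 0, so this check cannot decide whether the numbers mark a shared batch. With a replicate block, genes called lower among the 10 went from 1 to 0 in WT cuprizone and from 1 to 0 between genotypes under cuprizone (Ctsk adjusted p = 0.0633, Ctsd 0.0506), Cst3 in AHR CKO reached 0.0719, and calls over all genes were 51 between genotypes in controls, 1806 under cuprizone and 0 for the interaction. With only the groups compared, those member counts were also 0 and 0, and all-gene calls were 127 and 1070, against 851 and 2747. Under cuprizone 2 members were lower in AHR CKO after rescaling to a common total and 3 after quantile normalization. The interaction gave 5 calls over all genes, 1 without the filter and 2 without a trend in the prior variance. Leaving out 1 library at a time gave 0 to 1 members lower in WT cuprizone, 0 to 3 lower between genotypes under cuprizone, and 840 to 1553 calls over all genes for cuprizone in AHR CKO, 4 to 1428 and 777 to 3305 between genotypes without and with cuprizone, and 0 to 103 for the interaction.

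Small genotype differences in controls, none of them called, changed sign: with a common total Ctsa -0.0507, Ctsl -0.0311 and Ctsz -0.0469, and with quantile normalization Ctsd -0.0363, Ctsl -0.0001, Ctsz -0.0091 and Cst3 -0.0609. With single libraries left out they ran from -0.0427 to 0.0455 for Ctsa, from -0.3223 to 0.0117 for Ctsk and from -0.0837 to 0.1234 for Ctsz. The uncalled cuprizone change of Ctsf in WT ran from -0.0366 to 0.1296. Quantile normalization moved the share of Ctsb in AHR CKO controls to 5.09%, of Ctsd and Ctss in WT controls to 8.43% and 3.02%, and of Cst3 in WT and AHR CKO controls to 77.6% and 77.8%. With the mean of the markers' log2 values, the change of the ratio to microglia markers in WT and AHR CKO was -0.44 and -0.34 for Ctsa, -0.42 and -0.26 for Ctsb, 1.03 and 0.57 for Ctsc, 0.92 and 0.49 for Ctsd, 0.97 and 0.76 for Ctsh, -2.35 and -1.47 for Ctsk, -0.0911 and -0.0674 for Ctsl, 1.12 and 1.11 for Ctss, 0.82 and 0.86 for Ctsz and -0.73 and -0.55 for Cst3, and -0.0622 for Ctsd between genotypes under cuprizone. Leaving Cx3cr1 out of the marker sum, an alternative added after seeing the data, moved none of the 21 ratio differences by more than its replicate SD. The share of calls that were higher between genotypes under cuprizone was 45.76%, and 21.24% with a common total; for cuprizone in AHR CKO it was 70.78%, and 58.99% with a common total or 60.1% with quantile normalization. Of 39 calls on other genes, 13 were lost under at least 1 alternative and 0 reversed. With 3 libraries a group and depth unknown, values that did not pass are not shown to be equal.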
